A study of Mus musculus with 2 samples.

Results

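The 10 genes described here serve mitochondrial removal and ubiquitin tagging in the youngest red cells, the reticulocytes. They are Bnip3l, Fundc1, Ulk1, Gabarapl2, Map1lc3b, Ubb, Ube2c, Ube2o, Fbxo7 and Trim58, chosen by symbol as the matching rows of a table of 32285 genes. Their unique molecular identifiers (UMIs, one per captured RNA molecule) were followed over all 1857 cell barcodes of a study of mouse blood. A barcode was called red when at least 50% of its UMIs came from globin genes, which held for 847 barcodes, and non-red otherwise, which held for 1010 barcodes. The study gave wild type mice a burn with tenotomy (a cut tendon), sorted whole blood on a microfluidic chip (the iChip), and barcoded single cells by 10x Genomics droplets. The labels name the cells as cMPCs, an abbreviation they do not spell out, and blood cells. There are 2 libraries, replicate 1 and replicate 2, of the same genotype and treatment, and no library of uninjured mice was used here. All comparisons are therefore between barcodes within a library. The labels do not say whether the libraries came from separate mice, so the p-values below measure only the spread between 2 libraries, which may be technical.

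A red cell precursor expels its nucleus and leaves the marrow as a reticulocyte that still holds mitochondria, ribosomes and messenger RNA. Mitochondria are then enclosed by autophagosomes and digested (mitophagy), and other proteins are tagged with ubiquitin and degraded while globin is kept. In mouse reticulocytes the outer membrane protein Bnip3l, also called Nix, is needed for mitochondria to be enclosed, and the ubiquitin enzyme Ube2o is needed for ribosomes to be removed.

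In the mm10 build with the GENCODE M21 annotation all members are protein-coding genes, and counts are per gene. The mitophagy genes are Bnip3l (ENSMUSG00000022051, chr14:66985239-67008877, minus strand), Fundc1 (ENSMUSG00000025040, chrX:17556564-17572325, minus), Ulk1 (ENSMUSG00000029512, chr5:110784488-110810097, minus), Gabarapl2 (ENSMUSG00000031950, chr8:111940703-111953612, plus) and Map1lc3b (ENSMUSG00000031812, chr8:121590361-121598760, plus). The ubiquitin genes are Ubb (ENSMUSG00000019505, chr11:62551171-62553213, plus), Ube2c (ENSMUSG00000001403, chr2:164769898-164778822, plus), Ube2o (ENSMUSG00000020802, chr11:116537740-116581447, minus), Fbxo7 (ENSMUSG00000001786, chr10:86021972-86051873, plus) and Trim58 (ENSMUSG00000037124, chr11:58640465-58652404, plus). Another gene overlaps the spans of Map1lc3b (Gm20388 and Zcchc14), Ube2c (Tnnc2), Ube2o (Gm11742) and Fbxo7 (A230060F14Rik and Gm24430), and no source used here states whether strand was used in counting. Ubb shares its repeated ubiquitin coding sequence with other genes, so the split of reads among them is uncertain.

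Promoters are shown for Gabarapl2, Map1lc3b, Ube2c and Ubb, members that were lower together in red barcodes with the highest mitochondrial share. Each window runs from 250 bases before to 50 bases after the RefSeq transcription start on GRCm38.p6, and 8 of the 10 members were matched in that table, all except Bnip3l and Ube2o. Capitals mark matches, on either strand, to the CCAAT box, to the KLF-type word CCNCACCC, or to GATA words. A GATA word was AGATAA or one of its 3 forms with T as the first letter, G as the last, or both. No base lay in 2 different motifs. The windows are chr8:111940453-111940752 for Gabarapl2, chr8:121590188-121590487 for Map1lc3b, chr2:164769679-164769978 for Ube2c and chr11:62550921-62551220 for Ubb, all on the plus strand.
Gabarapl2: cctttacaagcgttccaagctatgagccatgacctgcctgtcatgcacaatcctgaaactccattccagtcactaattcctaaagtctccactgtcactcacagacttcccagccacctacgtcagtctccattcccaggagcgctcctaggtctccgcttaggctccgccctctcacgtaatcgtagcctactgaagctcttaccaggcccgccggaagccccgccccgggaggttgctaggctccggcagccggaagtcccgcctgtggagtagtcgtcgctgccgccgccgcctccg
Map1lc3b: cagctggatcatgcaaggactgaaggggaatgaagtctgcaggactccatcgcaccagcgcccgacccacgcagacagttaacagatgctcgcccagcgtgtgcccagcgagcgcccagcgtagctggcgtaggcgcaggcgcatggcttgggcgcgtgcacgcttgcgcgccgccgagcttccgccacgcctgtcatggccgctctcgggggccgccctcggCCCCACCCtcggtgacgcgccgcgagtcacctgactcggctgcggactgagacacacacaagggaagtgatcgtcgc
Ube2c: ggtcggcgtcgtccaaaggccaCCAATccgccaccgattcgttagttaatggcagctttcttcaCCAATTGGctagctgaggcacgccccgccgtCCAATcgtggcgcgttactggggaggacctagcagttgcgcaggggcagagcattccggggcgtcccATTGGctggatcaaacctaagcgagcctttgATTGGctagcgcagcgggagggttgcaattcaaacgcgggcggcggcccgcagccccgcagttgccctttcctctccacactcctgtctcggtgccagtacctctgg
Ubb: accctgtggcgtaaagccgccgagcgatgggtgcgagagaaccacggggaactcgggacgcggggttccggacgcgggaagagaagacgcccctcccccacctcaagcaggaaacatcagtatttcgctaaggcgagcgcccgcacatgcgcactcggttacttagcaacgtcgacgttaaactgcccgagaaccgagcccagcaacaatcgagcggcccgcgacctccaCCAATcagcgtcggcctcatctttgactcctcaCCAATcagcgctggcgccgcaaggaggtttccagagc
The Ube2c window held 6 CCAAT words, of which a pair overlaps on opposite strands, and the Ubb window held 2. A second Ubb window in the table, chr11:62551481-62551780, held no CCAAT word and 1 KLF-type word. The Map1lc3b window held 1 KLF-type word, and the Gabarapl2 window held none of these words. Of 32817 mouse promoter windows of the same length, 37.4% held a CCAAT word, 11.7% held at least 2 and 26 (0.0792%) held at least 6. A GATA word was in 29.8% and the KLF-type word in 16.6% of them. The Trim58 window had 1 GATA word and 1 CCAAT word. A match here is a match of letters only.

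The libraries held 3967318 UMIs in 1008 barcodes (replicate 1) and 3329292 UMIs in 849 barcodes (replicate 2), with no fewer than 500 UMIs per barcode and no barcode shared. Red barcodes numbered 474 and 373, with medians of 5979.5 and 6048 UMIs and 127.5 and 130 genes, and non-red barcodes numbered 534 and 476, with medians of 846 and 861.5 UMIs. All 7 erythroid markers were detected in red barcodes of both libraries. The 49 markers of leukocytes, platelets, endothelial, mesenchymal and progenitor cells together gave 39 and 23 UMIs there, with T cell, NK and progenitor markers at 0. Most non-red barcodes, 439 and 328, held over 20% mitochondrial UMIs (medians 94.7% and 94.8%). A second comparison therefore used only the 95 and 148 non-red barcodes of at most 20%. The libraries stand apart here: barcodes with 5 to 50% globin made up 10 of the 95 in replicate 1 and 117 of the 148 in replicate 2, and neutrophil markers gave 4787 UMIs in replicate 1 and 0 in replicate 2. The fold change of each tested member is therefore also given against the non-red barcodes under 5% globin, in the same order of comparisons (all, then low-mitochondrial). Levels are given as UMIs per 1000000 non-globin UMIs of a class (CPM) unless another scale is named. They are not scaled by transcript length, so different genes are not ranked. The ribosomal RNA locus Gm42418 alone took 46.3% and 43.0% of the non-globin UMIs of red barcodes.

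The mitophagy receptor Bnip3l, the ATG8-family genes Gabarapl2 and Map1lc3b, the ubiquitin genes Ubb, Ube2c and Ube2o and, at a low level, Fbxo7 were higher in red than in non-red barcodes of both libraries. Ulk1 and Fundc1 had no UMI in any red barcode. Trim58 had 15 UMIs in red barcodes and 1 UMI elsewhere. Of the 10 members, 7 passed the low-count filter and were tested, and all 7 were called higher (edgeR, adjusted p under 0.05), against 16.1% of all 2796 genes tested. A further 72.9% of the genes tested were lower, so that 89.1% were called in either direction, with a median log2 fold change of -4.68. Against low-mitochondrial non-red barcodes the same 7 members were called, where 9.08% of 3061 genes tested were higher, 80% lower and 89.1% either, and the median was -5.86. A member that passed the filter through the red barcodes alone had to differ, so the count by itself supports nothing.

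**Figure D1:**
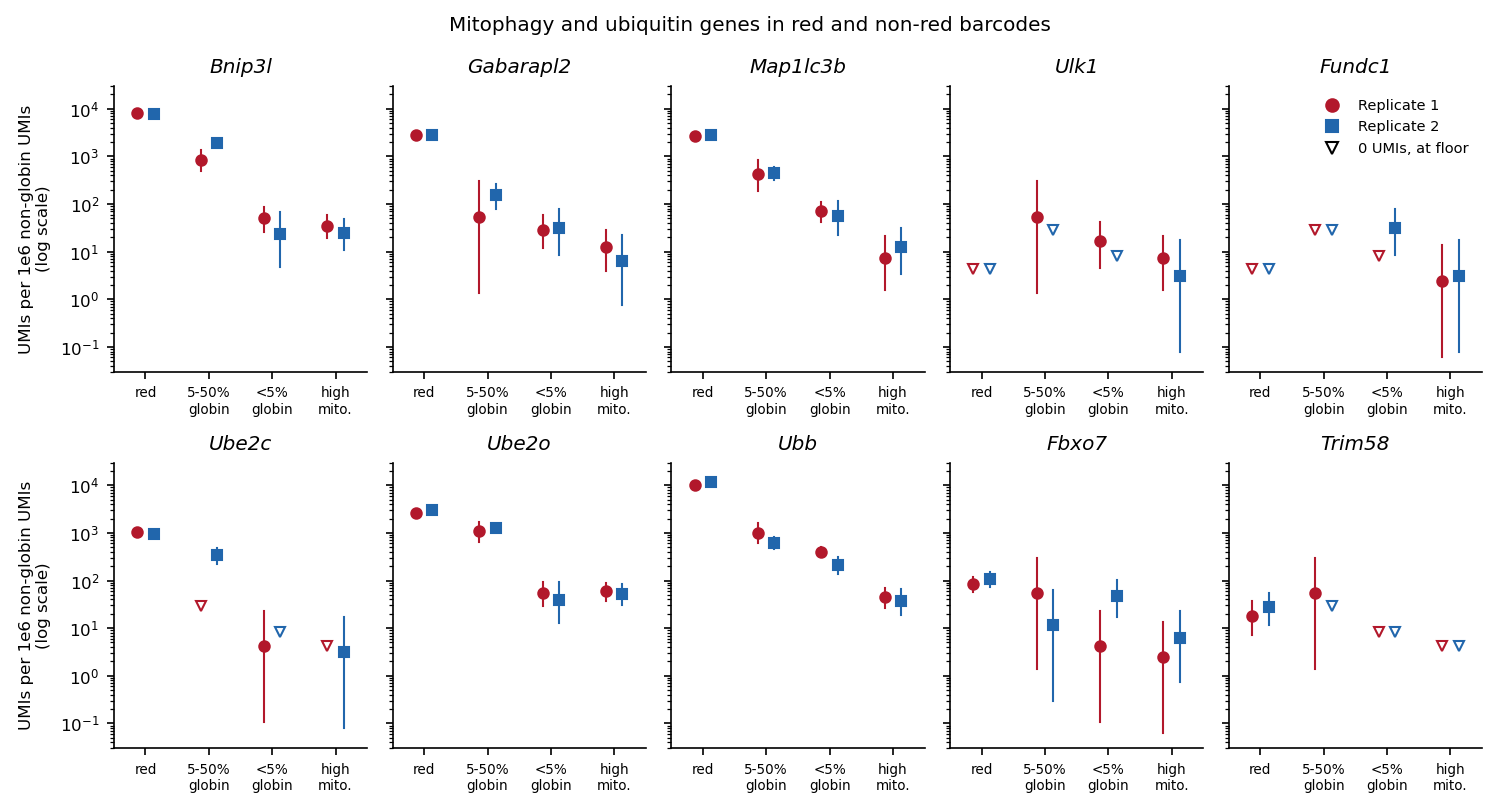
Level of each of the 10 members (CPM of non-globin UMIs, log axis) in red barcodes, low-mitochondrial non-red barcodes with 5 to 50% globin, those under 5% globin, and high-mitochondrial barcodes. Circles are replicate 1, squares replicate 2, and lines exact 95% Poisson intervals of the counts. Open triangles mark 0 UMIs in a library. They are drawn at the floor of 3 UMIs over both libraries, which is no limit for a single library. Bnip3l lies at 8059.6 and 7651.5 in red barcodes and at 34.6 and 24.9 in high-mitochondrial ones.

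Among the receptors, Bnip3l stood at 8059.6 and 7651.5 CPM in red barcodes of replicates 1 and 2, against 63.2 and 324 in all non-red barcodes. In low-mitochondrial non-red barcodes it stood at 108 and 773. The red and non-red values did not overlap on either comparison, but 89.1% of all genes tested were called in either direction on each. The share of genes without overlap is not given here. The log2 fold change was 5.74 (SE 0.84, edgeR adjusted p = 1.56e-10) over all non-red and 4.72 (SE 1.02, edgeR adjusted p = 8.45e-06) over low-mitochondrial non-red barcodes. It rested on the library used for non-red cells: without replicate 1 the values were 4.56 and 3.31, and without replicate 2 they were 7.0 and 6.23. In replicate 2, 162 of the 173 non-red Bnip3l UMIs lay in barcodes of 5 to 50% globin, and against non-red barcodes under 5% globin the log2 fold changes were 8.38 and 7.67. At least 1 Bnip3l UMI was seen in 96.8% and 95.2% of red barcodes, against 5.06% and 19.3% of non-red ones. After each barcode was thinned to 100 non-globin UMIs, which left out 3 red barcodes of replicate 2, these shares were 53.0% and 50.5% in red and 0.749% and 3.78% in non-red barcodes.

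Fundc1, the other outer-membrane receptor among the members, was not detected in the 847 red barcodes, which allows a share of barcodes with a UMI of up to 0.354% and a level of up to 4.42 CPM. All intervals and such limits cover counting error only. Non-red barcodes held 1 and 5 Fundc1 UMIs. Pooled over both libraries, its level in all non-red barcodes was 1.13-fold the red limit, which is the floor of 3 UMIs. In low-mitochondrial non-red barcodes it was 1.91-fold that limit. These ratios leave out the counting error of the few non-red UMIs, so they give no least fold difference. Ulk1, the kinase that starts autophagosome formation, also had 0 UMIs in red barcodes. It had 8 and 1 UMIs in non-red barcodes (7.51 CPM pooled) and 5 and 0 in low-mitochondrial ones (10.6 CPM pooled), again too few for a least fold difference. Neither gene passed the filter, so neither has a test.

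The ATG8-family proteins coat the growing autophagosome and bind receptors such as Bnip3l. Gabarapl2 was at 2755.6 and 2750.7 CPM in red barcodes, against 19.6 and 35.6 in all non-red and 30.7 and 79.6 in low-mitochondrial non-red barcodes. Its log2 fold change was 6.68 (SE 0.79, edgeR adjusted p = 4.09e-15) over all and 5.74 (SE 0.93, edgeR adjusted p = 6.38e-09) over low-mitochondrial non-red barcodes. The red libraries were close, with a mean of 2753 ± 3.46 (SD, n = 2). Map1lc3b stood at 2672.7 and 2866.8 in red barcodes, against 42.1 and 91.7 in all non-red and 96.1 and 211 in low-mitochondrial ones. The corresponding log2 fold changes were 5.46 (SE 0.74, edgeR adjusted p = 5.43e-12) and 4.27 (SE 0.85, edgeR adjusted p = 1.59e-06). Against non-red barcodes under 5% globin, Gabarapl2 had 7.57 and 6.5, and Map1lc3b had 6.64 and 5.43. Neither gene's red and non-red values overlapped, beside the same 89.1% of all genes called in either direction.

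Ubb, which encodes chains of ubiquitin, reached 10012 and 11433 CPM in red barcodes, against 203 and 172 in all non-red and 449.6 and 375 in low-mitochondrial non-red barcodes. Its log2 fold changes were 5.84 (SE 0.84, edgeR adjusted p = 9.07e-11) and 4.70 (SE 1.01, edgeR adjusted p = 6.35e-06). Against barcodes under 5% globin they were 6.39 and 5.14. Leaving out either library gave 5.62 and 6.05 for the first of these. Thinned to 100 non-globin UMIs, 48.9% and 50.5% of red barcodes held a Ubb UMI, against 1.31% and 0.630% of non-red ones.

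Ube2c, the ubiquitin-conjugating enzyme of the anaphase-promoting complex, stood at 1059.3 and 949 CPM in red barcodes, against 1.5 and 56.1 in all non-red barcodes. In low-mitochondrial non-red barcodes it was at 3.84 and 136. These non-red levels come from 1 UMI in replicate 1 and 30 UMIs in replicate 2, of which 29 lay in barcodes of 5 to 50% globin. Its log2 fold change was 5.64 (SE 0.69, edgeR adjusted p = 2.30e-14) over all and 4.46 (SE 0.83, edgeR adjusted p = 2.99e-07) over low-mitochondrial non-red barcodes. One library again set the size. Without replicate 1 the values were 4.08 and 2.80, and without replicate 2, where the non-red level rests on that 1 UMI, they were 9.46 and 8.11. Non-red barcodes under 5% globin, with 1 Ube2c UMI in all, gave 8.89 and 8.35. Ube2o, a large enzyme that conjugates ubiquitin by itself, stood at 2561 and 3013.5 in red barcodes, against 85.7 and 247 in all non-red and 127 and 539 in low-mitochondrial ones. The log2 fold changes of Ube2o were 4.24 (SE 0.70, edgeR adjusted p = 1.35e-08) and 3.38 (SE 0.84, edgeR adjusted p = 8.69e-05), and 5.94 and 5.84 against barcodes under 5% globin. Without replicate 1 they were 3.61 and 2.48, and without replicate 2 they were 4.90 and 4.34.

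Fbxo7, an F-box protein that picks substrates for a ubiquitin ligase, gave 32 UMIs in red barcodes of each library, or 82.9 and 109 CPM, against 4.51 and 16.8 (3 and 9 UMIs) in non-red barcodes. Its log2 fold change was 3.26 (SE 0.76, edgeR adjusted p = 3.90e-05), and 2.34 (SE 0.82, edgeR adjusted p = 0.00529) over low-mitochondrial non-red barcodes, and 3.34 and 2.23 against those under 5% globin. Without replicate 1 the first pair was 2.70 and 1.74, and without replicate 2 it was 4.2 and 3.43. Trim58, a ubiquitin ligase that acts on dynein in mouse erythroblasts, gave 7 and 8 UMIs in red barcodes, against 1 and 0 UMIs in non-red ones, and did not pass the filter. Its red levels of 18.1 and 27.3 CPM had exact 95% Poisson intervals of 7.29 to 37.4 and 11.8 to 53.8.

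TMM scaling, which assumes that most genes do not differ, kept every direction and left fewer calls. Over all non-red barcodes Ube2o then missed the threshold (log2 fold change 4.63, edgeR adjusted p = 0.060). Over low-mitochondrial ones only Gabarapl2, Ube2c and Fbxo7 were called, while Bnip3l (6.40, edgeR adjusted p = 0.087), Map1lc3b (5.93, edgeR adjusted p = 0.057), Ube2o (5.05, edgeR adjusted p = 0.096) and Ubb (6.37, edgeR adjusted p = 0.074) were not.

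Barcodes with 5 to 50% globin carried red-cell RNA with little sign of other cells. Their summed erythroid markers stood at 11990 and 10915 CPM, and the 49 markers of other cells gave 3 and 5 UMIs in all. The ratios to globin that follow are descriptions, because the classes were cut by globin share and a lower share raises such a ratio. Per 10000 globin UMIs, Bnip3l stood at 16.6 and 51.3 in these barcodes, against 10.7 and 9.09 in red barcodes. Ube2o stood at 20.8 and 34.8, against 3.41 and 3.58 in red barcodes, and Map1lc3b at 8.30 and 12, against 3.56 and 3.41. Ubb was at 19.7 and 16.8, against 13.3 and 13.6 in red barcodes. Gabarapl2 lay on both sides of the red value, at 1.04 and 4.11 against 3.67 and 3.27, as did Ube2c, at 0 and 9.17 against 1.41 and 1.13. In CPM, by contrast, Bnip3l in these barcodes was below its red level, at 856 and 1881. Gm42418 took 65.3% and 68.3% of their non-globin UMIs, against 46.3% and 43.0% in red barcodes. The CPM of other genes falls as that share rises, and its part in the lower Bnip3l level was not tested. The replicate 1 values rest on 10 barcodes and up to 20 UMIs per gene, with 1 UMI for Gabarapl2 and 0 for Ube2c.

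Near the globin cutoff, 12 barcodes lay between 50 and 55% globin, 6 in each library, and 7 lay between 45 and 50%, all in replicate 2. Just inside (both libraries pooled) and just outside (replicate 2) the cutoff Bnip3l was at 3231.9 and 3861 CPM, Ube2o at 1818 and 2079, Map1lc3b at 741 and 1336.5, and Ubb at 1414 and 2079. Gabarapl2 was at 539 and 148.5 and Ube2c at 471 and 297, with 1 and 2 UMIs outside. These are 1 to 48 UMIs per value and are given without a test.

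Within red barcodes, the share of mitochondrial UMIs was small and spread widely. It was 0.204% and 0.235% at the median, and the barcodes of each library were divided into quartiles by it. Median shares in quartiles 1 to 4 were 0.0678, 0.148, 0.307 and 0.818% in replicate 1 and 0.0665, 0.161, 0.364 and 1.09% in replicate 2. Depth and globin moved with it. Median UMIs over the quartiles were 9966, 7269.5, 4635.5 and 2894 in replicate 1 and 10423, 9135, 4757 and 2675 in replicate 2. Median globin shares were 92.9, 89.9, 84.3 and 72.8% in replicate 1 and 94.2, 92.1, 86.1 and 71.7% in replicate 2. Markers of other cells gave 25 and 5 UMIs in the highest quartiles and 5 and 5 UMIs in the lowest. For the quartiles, CPM was taken over the UMIs that are neither globin nor mitochondrial, of which Gm42418 took 54.7% and 54.0% in the highest quartile, against 41.9% and 39.0% in the lowest.

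In red barcodes with the highest mitochondrial share, 5 members were lower than in those with the lowest. They were Bnip3l, Gabarapl2, Map1lc3b, Ubb and Ube2c. Ube2o was not called, and Fbxo7, Trim58, Ulk1 and Fundc1 did not pass the filter. The 5 of 6 tested members called lower stand beside 36.2% of all 340 genes tested called lower, 12.4% called higher and a median log2 fold change of -0.47. By another scaling the background differed: TMM called 75 genes higher and 64 lower, DESeq2 34 higher and 30 lower, and leaving out Gm42418 and a second ribosomal locus gave 46 and 46, against 42 and 123 here.

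**Figure D2:**
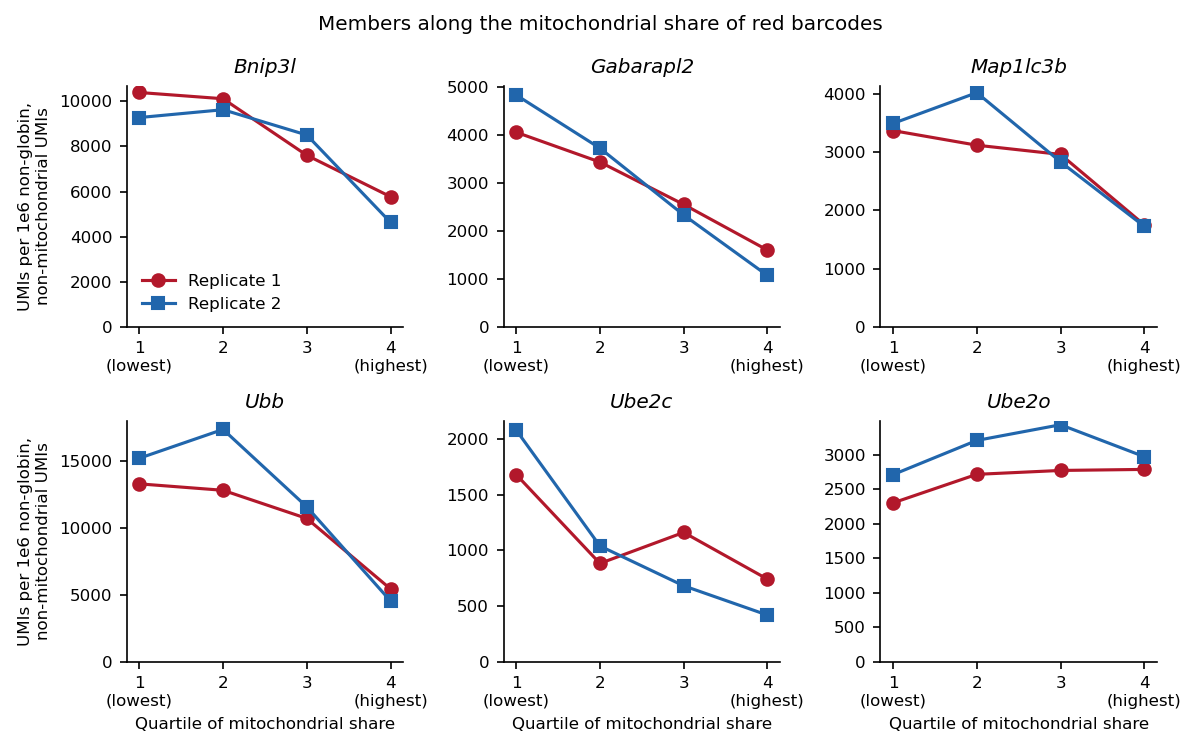
Levels of the 6 tested members (CPM of UMIs that are neither globin nor mitochondrial) in red barcodes, by quartile of mitochondrial share from lowest (1) to highest (4). Circles are replicate 1 and squares replicate 2, joined by lines, and no intervals are drawn. Ubb is at 5429 and 4526 in quartile 4 and at 13274 and 15187 in quartile 1, while Ube2o shows no such drop.

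Bnip3l stood at 10390.4, 10113.6, 7606 and 5769.6 CPM in quartiles 1 to 4 of replicate 1, and at 9279.8, 9627, 8506 and 4630.4 in replicate 2. The drop lay mainly in the upper quartiles. Its log2 fold change, highest over lowest quartile, was -0.92 (SE 0.15, edgeR adjusted p = 1.81e-08), or -0.46 relative to the median gene. Gabarapl2 declined at each step, with 4063, 3441, 2556 and 1603 in replicate 1 and 4841, 3731, 2336 and 1073 in replicate 2. It had a log2 fold change of -1.73 (SE 0.20, edgeR adjusted p = 1.26e-14), or -1.26 relative to the median gene. Map1lc3b was at 3372, 3121, 2963 and 1753 in replicate 1 and at 3495, 4024, 2835 and 1727 in replicate 2, with a log2 fold change of -0.98 (SE 0.20, edgeR adjusted p = 1.35e-05), or -0.51 relative to the median gene. Only its highest quartile lay clearly below the others in both libraries.

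Ubb stood at 13274, 12794, 10691 and 5429 in replicate 1 and at 15187, 17338, 11560 and 4526 in replicate 2. Its log2 fold change was -1.51 (SE 0.14, edgeR adjusted p = 4.76e-21), or -1.05 relative to the median gene. Ube2c was at 1680.1, 882, 1161 and 741 in replicate 1 and at 2079.7, 1039, 681 and 419 in replicate 2, with a log2 fold change of -1.68 (SE 0.26, edgeR adjusted p = 1.18e-08), or -1.21 relative to the median gene. In both libraries the lowest quartile was the highest in Ube2c. Barcodes with at least 5 Ube2c UMIs held 11 and 0 UMIs in the highest quartile, against 76 and 68 in the lowest, and the other barcodes held 63 and 32, against 65 and 51. The Ube2c value was -2.31 without replicate 1 and -1.18 without replicate 2. Ube2o differed from these in pattern, at 2299.7, 2713, 2769.6 and 2785 in replicate 1 and 2709, 3204, 3431 and 2969 in replicate 2. Its log2 fold change of 0.21 (SE 0.20, edgeR adjusted p = 0.388) was 0.67 above the median gene, and it was called higher under TMM scaling (0.67, edgeR adjusted p = 0.0021) and without the ribosomal loci (0.60, edgeR adjusted p = 0.034). Fbxo7 lay between 69.9 and 158 CPM in all quartiles, and Trim58 gave 0 to 3 UMIs in each.

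The sign of these differences depended on what the UMIs were divided by. Counted per barcode, Bnip3l averaged 4.84 and 3.81 UMIs in the highest quartile, against 7.33 and 5.65 in the lowest. Per 10000 globin UMIs, it was 16.1 ± 0.694 in the highest, against 7.16 ± 1.45 in the lowest quartile (SD, n = 2), and so higher. On the globin scale Ube2o stood at 8.98 ± 1.41 against 1.80 ± 0.0147, Map1lc3b at 5.42 ± 0.549 against 2.48 ± 0.244, and Ubb at 15.4 ± 0.252 against 10.2 ± 0.295. Gabarapl2 and Ube2c moved least on it, at 4.10 ± 0.701 against 3.2 ± 0.000329 and at 1.77 ± 0.508 against 1.35 ± 0.0363.

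With globin share held alike, 4 of the 5 members called between quartiles were no longer called. When quartiles of mitochondrial share were taken within 4 strata of globin share, Ube2c alone of the members was called, with a log2 fold change of -0.73 (SE 0.19, edgeR adjusted p = 0.023). Mean Ube2c levels were then 891 ± 81.7 CPM in the highest and 1488 ± 54.7 in the lowest quartile (SD, n = 2). That difference lay in barcodes rich in Ube2c. Those with at least 5 Ube2c UMIs numbered 4 and 1 in the highest quartile and held 27 and 9 UMIs, against 5 and 4 in the lowest, which held 56 and 62 UMIs. The other barcodes held 67 and 53 Ube2c UMIs in the highest quartile, against 68 and 39 in the lowest. A Ube2c UMI was found in 43 and 30 barcodes of the highest, against 46 and 25 of the lowest. In replicate 2, 1 barcode held 42 of the 101 Ube2c UMIs of the lowest quartile, and the whole highest quartile held 62. The difference in that library therefore rested on 1 barcode. Bnip3l was at 7874 ± 650 in the highest and 8271 ± 452 in the lowest quartile, with a log2 fold change of -0.07 (edgeR adjusted p = 0.68). Gabarapl2 was at 2796 ± 383 and 2830 ± 47.4 in the highest and lowest quartile, with a log2 fold change of -0.01 (edgeR adjusted p = 0.95). The signs of Map1lc3b (0.40, edgeR adjusted p = 0.090) and Ubb (0.23, edgeR adjusted p = 0.23) turned positive without a call. Under this matching 31 genes were called higher and 6 lower. Among red barcodes of at least 90% globin, quartiled anew, no gene of 232 was called (edgeR, with 65 genes at an unadjusted p under 0.05). There Ube2c had a log2 fold change of -0.39 (edgeR adjusted p = 0.26) and Bnip3l of 0.11 (edgeR adjusted p = 0.33). These matched comparisons were chosen after seeing the data.

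**Figure D3:**
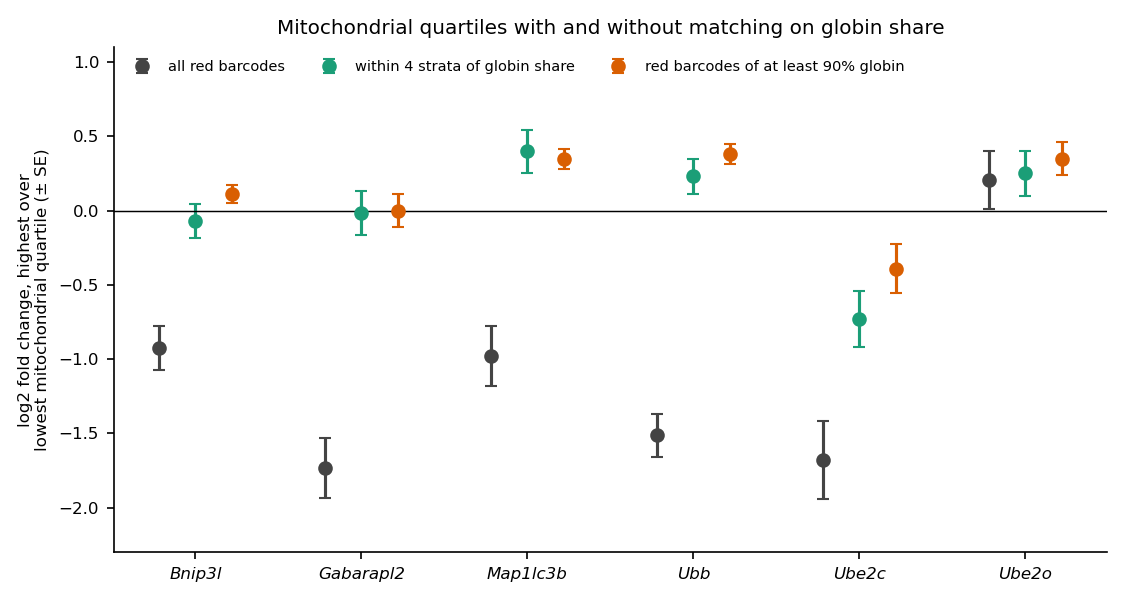
Log2 fold change of 6 members, highest over lowest mitochondrial quartile of red barcodes (bars, ± SE from edgeR), in all red barcodes, within 4 strata of globin share, and among barcodes of at least 90% globin. Without matching, 5 members lie between -0.92 and -1.73. Within strata, Ube2c at -0.73 is the one member called, and in replicate 2 its difference rests on 1 barcode with 42 UMIs.

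The quartile comparison took the mitochondrial share of all UMIs, most of which are globin. With the share taken of non-globin UMIs, the 5 members were nearer to zero. Ube2c was still called (-1.14, edgeR adjusted p = 0.044). Bnip3l at -0.24, Gabarapl2 at -0.41, Ubb at -0.22 and Map1lc3b at 0.055 were not. DESeq2 on the first quartiles called Gabarapl2, Ubb and Ube2c, and not Bnip3l (-0.47, DESeq2 adjusted p = 0.057) or Map1lc3b (-0.53, DESeq2 adjusted p = 0.17).

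Over single red barcodes, levels of Gabarapl2 followed globin share most closely among the members, with Spearman's rho of 0.55 and 0.60 (474 and 373 barcodes), against -0.36 and -0.47 with mitochondrial share. Bnip3l gave 0.46 and 0.44 with globin share and -0.32 and -0.35 with mitochondrial share, and Ubb gave 0.43 and 0.47 with the first and -0.27 and -0.35 with the second. Ube2c gave 0.07 and 0.09 with globin share and -0.06 and -0.11 with mitochondrial share, and Ube2o -0.04 and -0.05 with globin share and 0.11 and 0.08 with mitochondrial share. Mitochondrial and globin share themselves had a rho of -0.75 and -0.80. With the share of Gm42418, Ubb had a rho of -0.67 in both libraries. Between members, Gabarapl2 and Map1lc3b had a rho of 0.38 and 0.48, Bnip3l and Ubb of 0.35 and 0.31, and Bnip3l and Ube2c of -0.00 and 0.04. The points of a library share its depth, and levels of one barcode share a denominator, so these are descriptions only.

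Members differed in how their UMIs were spread over red barcodes. Bnip3l was broad, with a median of 6 and 5 UMIs per barcode and no UMI in 15 and 18 barcodes. The 48 and 38 barcodes richest in Bnip3l held 26.2% and 27.3% of its UMIs, near the 22.9% and 23.0% of all UMIs held by as many of the deepest barcodes. Ubb was uneven, with a median of 4 and 5 UMIs, a maximum of 69 and 66, and 39.9% and 42.6% of UMIs in the 48 and 38 richest barcodes. Ube2c was the most concentrated of the 6 more abundant members by the same measure, with 58.2% and 67.3% of its UMIs in the richest barcodes. It was at 0 in 294 and 262 red barcodes. The 17 and 8 barcodes with at least 5 Ube2c UMIs held 34.0% and 33.8% of the total, and single barcodes reached 25 and 42.

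**Figure D4:**
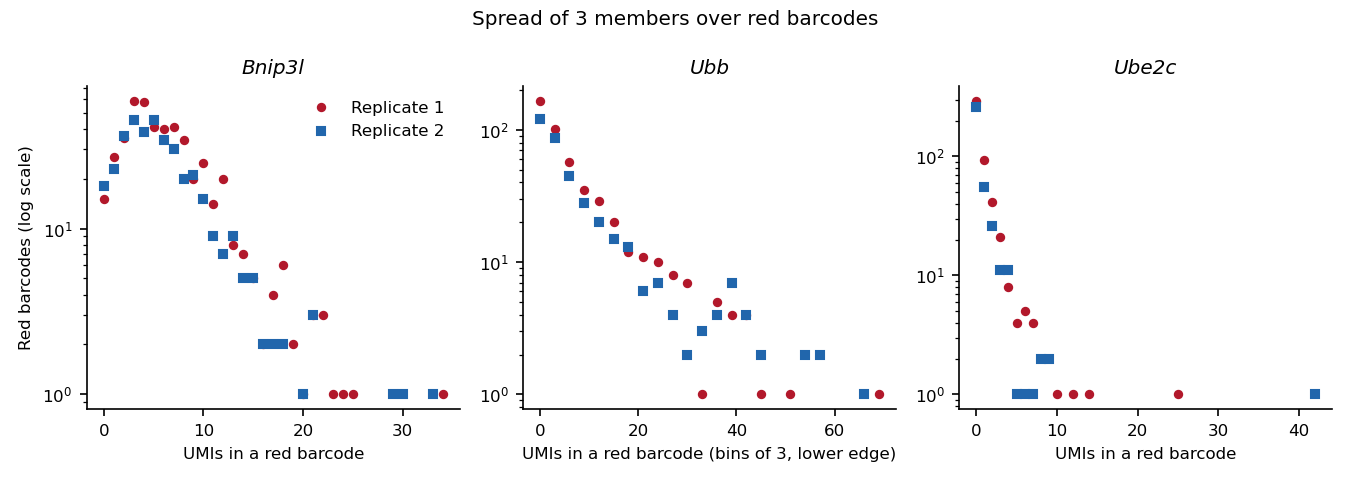
Number of red barcodes (log axis) by UMIs of Bnip3l, Ubb (in bins of 3 UMIs) and Ube2c per barcode, by library. Ube2c is at 0 in 294 and 262 barcodes and reaches 25 and 42 UMIs in single ones, whereas Bnip3l is at 0 in 15 and 18.

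The red barcodes with at least 5 Ube2c UMIs were deeper than those with none, with medians of 12689 and 11625.5 UMIs against 5038.5 and 4893.5, and they showed 261 and 202 genes at the median against 119 and 119. No test was made of groups chosen by Ube2c itself, and the following values describe them. Mki67, a marker of cycling cells, stood at 1190.1 and 1832 CPM in the barcodes rich in Ube2c, against 32.3 and 11 in those without. These high Mki67 values came from 2 of 17 and 1 of 8 barcodes. Birc5, which serves chromosome segregation, stood at 824 and 262, against 4.61 and 5.49, from 2 barcodes in each library. Ccna2, at 91.5 and 262 against 13.8 and 5.49, and Rrm2, at 229 and 262 against 9.22 and 5.49, were also higher. Each rested on 2 to 5 UMIs per library in at most 2 barcodes. Top2a, Cdk1, Ccnb1, Ccnb2, Cdc20, Plk1, Aurka, Aurkb and Bub1 had 0 UMIs in the barcodes rich in Ube2c. They also had at most 3 UMIs per library in the 294 and 262 barcodes without Ube2c, so these zeros show little. Cdc25b was at 504 and 785, against 747 and 796 in those without, and Nusap1 at 824 and 262, against 355 and 362. Ube2s, which extends the chains begun by Ube2c, stood at 595 and 1309, against 138 and 93.3. Bnip3l was alike in both, at 8971 and 7328 against 8218 and 7859.6, while Ubb stood at 17851 and 18451, against 8324 and 9951. Doublets were not called, and their part in these deep barcodes was not tested.

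The rest of each pathway was read from lists chosen with earlier results of these data known. Of 45 other autophagy and mitophagy genes, 24 had no UMI in red barcodes. Against low-mitochondrial non-red barcodes 16 were tested, of which 6 were higher and 7 lower, with a median log2 fold change of 0.16. Over all 3061 genes tested, 9.08% were higher and 80% lower, with a median of -5.86. Higher were Pink1, a kinase that marks damaged mitochondria (3.15, edgeR adjusted p = 0.000202), the autophagy regulator Becn1 (2.53), Wipi1 (2.20), Atg12 (2.06), the receptor Tax1bp1 (1.81) and the ATG8-family gene Gabarap (1.68). All 6 were also called against barcodes under 5% globin, where 22 genes of the list were tested, 8 higher and 14 lower. Gabarap averaged 286 ± 13.3 CPM in red and 88.7 ± 0.442 in low-mitochondrial non-red barcodes (SD, n = 2). Among the 7 lower were Atg3 and Atg5, each with 0 UMIs in red barcodes, and Rb1cc1, a partner of Ulk1, with 6. The receptor gene Sqstm1 was not called here but was called lower against barcodes under 5% globin (-1.34, edgeR adjusted p = 0.023), at 71.7 ± 4.84 in red and 147 ± 17.5 in low-mitochondrial non-red barcodes. Between mitochondrial quartiles 4 of these genes were tested and none was called by edgeR: Pink1 had a log2 fold change of 0.38, Becn1 of 0.59, Tax1bp1 of 0.66 and Gabarap of -1.02.

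Of 66 other ubiquitin genes, 43 were tested against low-mitochondrial non-red barcodes, with 12 higher, 19 lower and a median of -1.31. The same background of 9.08% higher, 80% lower and a median of -5.86 over all genes applies to them. Ube2l6, a conjugating enzyme, was at 6531.6 and 7030.4 CPM in red barcodes, against 84.5 and 586 in low-mitochondrial non-red ones, with a log2 fold change of 4.87 (SE 1.01, edgeR adjusted p = 3.03e-06) and of 8.18 against barcodes under 5% globin. The ubiquitin ligase gene Rnf10 averaged 1813 ± 51.7 in red and 196 ± 141 in low-mitochondrial non-red barcodes (SD, n = 2; log2 fold change 3.40, and 4.70 against barcodes under 5% globin). Ubiquitin ligase genes Huwe1 (-6.98) and Cul3 (-4.16) were among those lower.

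**Figure D5:**
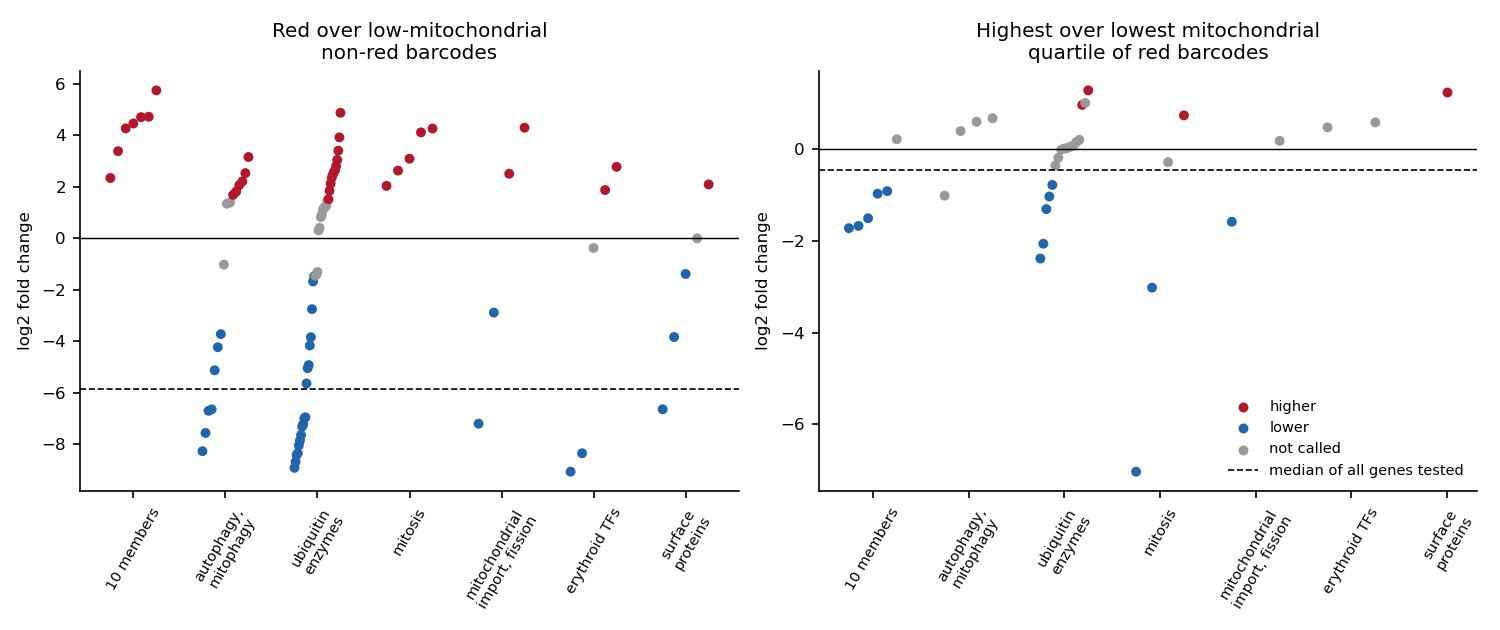
Log2 fold change of each tested gene among the members and 6 lists, in red over low-mitochondrial non-red barcodes (left) and in the highest over the lowest mitochondrial quartile of red barcodes (right). Red points were called higher, blue lower and grey not called (edgeR, adjusted p under 0.05), and dashed lines mark the medians of all genes, -5.86 and -0.47; the lowest mitosis point on the right is Birc5, with 0 UMIs in the highest quartile, and its fitted value is no bound.

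Between quartiles 17 ubiquitin genes were tested, of which 2 were higher, 5 lower and the median was 0.00. Beside them stand 12.4% higher and 36.2% lower over all genes, so these counts are near the background. Within globin strata 2 of 18 were called higher and none lower by edgeR. Ube2l6 was lower, at 4477 and 4957 CPM in the highest quartile, against 9914 and 9437 in the lowest (log2 fold change -1.04, edgeR adjusted p = 3.66e-10), but within globin strata it was not called (-0.21, edgeR adjusted p = 0.35). Trim10, a ubiquitin ligase gene of the erythroid lineage, was higher, at 791 and 706 against 405 and 209.7 (1.27, edgeR adjusted p = 0.0013), and was called within globin strata too (0.89, edgeR adjusted p = 0.038). Wdr26, a subunit of the ligase complex that acts in erythroid maturation, was higher over all red barcodes (0.95, edgeR adjusted p = 0.0063) and was not called within strata (0.47, edgeR adjusted p = 0.20).

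Of 35 mitosis genes, 12 had no UMI in red barcodes and 5 were tested, all higher than in low-mitochondrial non-red barcodes: Nusap1 (4.26), Birc5 (4.11), Cdc25b (3.09), Mki67 (2.63) and Fzr1 (2.04). Over all genes 9.08% were higher, but a gene at a low level passes the filter through the class where it is high. The 5 genes were also called against barcodes under 5% globin, where 7 mitosis genes were tested, 5 higher and 2 lower. For Mki67 and Birc5 a few barcodes carried most UMIs: 26 of the 39 Mki67 UMIs of replicate 1 lay in 2 red barcodes, 14 of the 20 of replicate 2 in 1, and 18 of the 19 Birc5 UMIs of replicate 1 in 2. Cdk1 and Ccnb1, which drive entry into mitosis, were among those at 0. Between quartiles Mki67 was lower (-3.02), with 6 and 1 UMIs in the highest against 30 and 16 in the lowest, and Birc5 was lower, with 0 and 0 UMIs against 19 and 10; those few barcodes hold more UMIs than all others, so neither value describes the class at large. Cdc25b was higher (0.73, edgeR adjusted p = 0.036), and Nusap1 was not called (-0.29). Within globin strata Cdc25b was not called (0.04, edgeR adjusted p = 0.92), Birc5 was called lower and Mki67 was not tested. Of 16 genes of mitochondrial import, fission and fusion, 11 had no UMI in red barcodes. Of 4 tested, the fission genes Fis1 (4.29) and Mff (2.51) were higher, while Dnm1l (-2.88, edgeR adjusted p = 0.00515), the fission GTPase, and Hspa9, an import motor protein with 0 UMIs in red barcodes, were lower. Fis1 was also lower in the highest mitochondrial quartile, at 781 and 458 against 1871 and 1852 (-1.59, edgeR adjusted p = 4.80e-08), but not within globin strata (0.013, edgeR adjusted p = 0.96). Of 12 erythroid transcription factor genes, 5 were tested, with Lmo2 (2.77) and Foxo4 (1.87) higher and 2 lower. Of 7 genes of surface proteins lost during maturation, Cd36 was higher (2.09), Itga4, Itgb1 and Cd44 were lower, and Tfrc, the transferrin receptor gene, was not called (0.00). Counts for the import, transcription factor and surface lists also stand beside 9.08% higher and 80% lower over all genes.

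The genes whose pattern was most like the members' sum were Atp5b (Pearson's r 0.998), Mkrn1 (0.998), Adipor1 (0.998), Isg20 (0.997) and Cd24a (0.997), over 12 sums of barcodes and 422 genes compared. Of those genes 229 had an r over 0.9, and the sums share the contrast of red with non-red barcodes.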

How the data were processed

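Both libraries were deposited as matrices of UMI counts per gene and barcode, which the authors made with Cell Ranger 7.1.0 on mm10, with Seurat 5 also named, per the submitters' processing notes. How barcodes were called and whether intronic reads counted are not given in the sources used here. Members and lists were chosen with earlier results of these data known.

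UMI counts were summed per library and barcode class (red, at least 50% globin UMIs; non-red, all and of at most 20% mitochondrial UMIs; quartiles of mitochondrial share within red barcodes). Globin genes (8 symbols) were left out, and in the quartile comparison also the 13 mitochondrial genes. Library sizes were set to the remaining UMIs. Each comparison used edgeR's quasi-likelihood test (edgeR 4.0.16, R 4.3.3) on 4 sums, with the library as block because both classes come from the same library. This leaves 1 residual degree of freedom, so the spread is largely shared across genes. Genes were kept by edgeR's low-count filter, and Benjamini-Hochberg adjustment covered every gene tested (threshold 0.05). Scripts were tested on simulated counts. Named genes were all members, list genes with at least 10 UMIs in red barcodes (at most 20 per list), and the 5 genes most like the members' sum by Pearson's r on log2(level + 10) over 12 sums with at least 50 red UMIs. Atg3, Atg5, Rb1cc1, Huwe1, Cul3, Itgb1, Dnm1l, Hspa9 and Ccna2 were named outside that rule after their values were seen. So were the mitosis genes at 0 in barcodes rich in Ube2c. Some list genes are counted but not reported here by name. Sequences came from RefSeq and GENCODE tables. Alternatives changed the scaling, filter, block, tool (DESeq2 1.42.0), class limits and libraries. Python 3.11.15 with numpy 2.4.6, scipy 1.17.1, pandas 2.3.3 and matplotlib 3.10.9 did the rest. No doublet caller was run.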

Additional observations from a re-analysis of the deposited data

How the results depend on the processing

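The replicate block, given by classes of the same library, changed no member's call: without it 7, 7 and 5 members and 2455, 2701 and 167 genes were called in red against all non-red, red against low-mitochondrial non-red, and highest against lowest quartile. Every other alternative for the red comparisons kept all 7 members called, apart from TMM scaling against low-mitochondrial barcodes, which kept 3, and against all non-red, which lost Ube2o. Counts of genes called in either direction were 3860 and 4958 with no filter on low counts in those comparisons, against 2490 and 2727, and 1815 with red taken from 90% globin. For the quartiles, 165 genes and 5 members were called, against 64 genes and 3 members by DESeq2, 100 genes without a filter, 23 genes and 1 member by share of non-globin UMIs, 92 genes without Gm42418 and AY036118, 37 genes and 1 member within globin strata, and 0 genes and 0 members at 90% globin, where edgeR gave 65 genes at an unadjusted p under 0.05 and DESeq2 was not run. Signs turned for Map1lc3b (0.055 by share of non-globin UMIs, 0.40 within strata, 0.35 at 90% globin), Ubb (0.23 within strata, 0.38 at 90% globin) and Bnip3l (0.11 at 90% globin), and the cause was not tested. The comparisons without Gm42418, within strata, at 90% globin and against barcodes under 5% globin were chosen after seeing the data. Leaving out either library gave log2 fold changes, over all non-red, of 6.27 to 7.14 for Gabarapl2, 4.97 to 5.99 for Map1lc3b, 3.61 to 4.90 for Ube2o and 2.70 to 4.2 for Fbxo7; over low-mitochondrial non-red, of 5.11 to 6.49, 3.77 to 4.80, 2.48 to 4.34 and 1.74 to 3.43; and for the quartiles, of -2.17 to -1.34, -1.02 to -0.94 and 0.13 to 0.28 for the first 3, -1.0 to -0.85 for Bnip3l and -1.75 to -1.29 for Ubb. The quartile difference in Ube2c lay mostly in a few barcodes rich in it. Counts of 0 to 15 UMIs for Ulk1, Fundc1 and Trim58 limit what can be said of them at this depth.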
